A study of Arabidopsis thaliana with 12 samples.

Results

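The 7 loci followed here belong to auxin signalling and lateral root initiation and are 7 of the 2424 genes in the deposited tables, which set roots that overexpress LBD29 or MYB2 or carry a MYB2 repressor fusion against wild-type roots. They were taken by locus: the Aux/IAA genes IAA14 (AT4G14550) and IAA3 (AT1G04240), MAKR4 (AT2G39370), WOX11 (AT3G03660), PLT7 (AT5G65510), GATA23 (AT5G26930) and PIN5 (AT5G16530). RNA sequencing was done on roots of Arabidopsis thaliana seedlings kept in the dark on half-strength medium until an age of 8 days, with 3 libraries from each of 4 genotypes. LBD29-OE carries Pro35S:LBD29-6Gly and MYB2-OE carries Pro35S:MYB2, so each overexpresses a transcription factor from the viral 35S promoter, which is active in most tissues. MYB2-SRDX carries Pro35S:MYB2-SRDX, in which MYB2 is fused to a short repression domain, and is labelled dominant negative. Col (Col-0) is the wild type. The labels do not say how many transformants stand behind a line, or whether its libraries came from separate cultures. The p-values computed here therefore cover only the scatter among the sequenced samples, and that scatter may be technical.

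Auxin opens the way to a new lateral root by removing Aux/IAA proteins, which hold auxin response factors such as ARF7 and ARF19 in check. Freed response factors turn on LBD16, LBD29 and their relatives in pericycle founder cells, and the founder cells then divide. IAA14, also called SOLITARY ROOT, is the Aux/IAA best known for blocking this step when it is stabilised. GATA23 and MAKR4 act early, when sites of future lateral roots are laid down, and PLT7 acts with its relatives in the young primordium. WOX11 marks founder cells of adventitious and wound-induced roots. PIN5 is a short PIN protein of the endoplasmic reticulum that moves auxin within the cell.

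The promoters of 4 of these genes are shown because IAA14 and MAKR4 were both higher in LBD29-OE, whereas PLT7 and GATA23 are the members with an auxin response element in the window. Each run gives the 250 bases before the RefSeq gene start in TAIR10.1, read 5′ to 3′ on the strand of the gene. Capitals mark a match to an auxin response element, and runs without capitals held none. IAA14 is at chr4:8350264-8350513, minus strand, MAKR4 at chr2:16445409-16445658, minus strand, PLT7 at chr5:26185343-26185592, plus strand, and GATA23 at chr5:9479174-9479423, plus strand.
IAA14: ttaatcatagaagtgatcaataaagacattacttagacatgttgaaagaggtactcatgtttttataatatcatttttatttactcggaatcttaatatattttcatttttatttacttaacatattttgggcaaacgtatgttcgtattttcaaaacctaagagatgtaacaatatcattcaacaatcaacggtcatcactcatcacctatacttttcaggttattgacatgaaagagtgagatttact
MAKR4: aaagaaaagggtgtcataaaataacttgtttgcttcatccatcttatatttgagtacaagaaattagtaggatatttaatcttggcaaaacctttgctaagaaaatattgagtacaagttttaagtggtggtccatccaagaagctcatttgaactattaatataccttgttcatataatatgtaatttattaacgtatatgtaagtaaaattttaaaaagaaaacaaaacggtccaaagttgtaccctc
PLT7: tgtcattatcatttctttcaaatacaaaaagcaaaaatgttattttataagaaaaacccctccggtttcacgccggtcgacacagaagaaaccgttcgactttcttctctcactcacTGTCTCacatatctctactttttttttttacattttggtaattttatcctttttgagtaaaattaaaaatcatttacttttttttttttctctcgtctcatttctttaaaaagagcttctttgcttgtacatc
GATA23: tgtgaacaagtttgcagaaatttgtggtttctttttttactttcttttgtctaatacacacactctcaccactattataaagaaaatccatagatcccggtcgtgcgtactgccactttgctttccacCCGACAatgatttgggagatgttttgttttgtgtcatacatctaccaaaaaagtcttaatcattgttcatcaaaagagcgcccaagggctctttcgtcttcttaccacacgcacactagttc
PLT7 held TGTCTC on its own strand, 133 to 128 bases before the start. GATA23 held TGTCGG on the opposite strand, 122 to 117 bases before the start, where the printed run reads the reverse complement. TGTCTC stood in 10.9% and TGTCGG in 4.16% of 27443 promoter windows of the same length, both strands counted. The LBD motif GCGGCG (1.56% of windows) and the MYB2 motif TAACTG (8.12%) were in 0 of the 7 member windows. A match describes these letters only.

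Each of the 7 genes stood in 1 table, that is, each was called by the authors in 1 line and has library values for that line and Col. The tables hold called genes only, with FPKM (fragments scaled to transcript length and to the fragments of the library) per library. IAA14 and MAKR4 were listed for LBD29-OE, IAA3, PIN5, WOX11 and PLT7 for MYB2-OE, and GATA23 for MYB2-SRDX. Of the 27550 protein-coding loci of the RefSeq annotation, 2.89% were listed for LBD29-OE (1.21% higher and 1.68% lower), 4.56% for MYB2-OE (2.37% higher and 2.19% lower) and 3.78% for MYB2-SRDX (2% higher and 1.78% lower). The 7 loci were chosen with their listing known, so their number says nothing against these shares. Each group of libraries was separated from Col for all 7 genes. The same held for 85.2% of all genes in the LBD29-OE table, 91.7% in that of MYB2-OE and 74.8% in that of MYB2-SRDX. At least 2-fold with a pseudocount of 0.1 were 2 of 2, 3 of 4 and 1 of 1 members, beside 90.9% (LBD29-OE), 90.2% (MYB2-OE) and 91.2% (MYB2-SRDX) of the listed genes. In roots sequenced in bulk, fewer cells of a type and less RNA per cell cannot be told apart.

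The transgene LBD29 measured 546 ± 63.8 FPKM in LBD29-OE, against 2.89 ± 0.295 FPKM in Col. MYB2 averaged 532 ± 138 FPKM in MYB2-OE, 505 ± 52.0 in MYB2-SRDX and 0.693 ± 0.28 in Col (SD, n = 3 each). Depth per library is unknown. None of the 5 root markers PLT1, SCR, SHR, COBL9 and WOX5 was listed in any of the 3 tables, so the tissue label could not be checked on them. Some libraries stood apart from the others of their line. In LBD29-OE the 3 listed of 4 green tissue markers (CAB2, RBCS1A, RBCS2B) summed to 159 FPKM in library 2 and 9.83 and 11.4 FPKM in libraries 1 and 3, against 90.0 to 121 FPKM in Col. The markers behind this sum went different ways. CAB2 (36.37 FPKM) and RBCS2B (32 FPKM) were high in library 2 only, whereas RBCS1A (90.99 FPKM) was within the range of Col there and low in libraries 1 and 3 (9.77 and 10.57 FPKM). In MYB2-SRDX the seed genes CRA1 and OLEO1 (2 of 2) summed to 2.89 FPKM in library 1 and stood at 0 in its other libraries and in Col. Of the 4 green markers 2 were listed there, summing to 10.3, 0.57 and 0.73 FPKM, against 5.16 to 6.8 FPKM in Col. RBCS2B was above Col in library 1 (9.17 FPKM, against 1.05 to 1.57 FPKM in Col), while LHCB2.1 was below Col in all 3 libraries (1.13, 0.17 and 0.21 FPKM, against 4.11 to 5.28 FPKM in Col). In MYB2-OE the same pair summed to 9.3, 10.55 and 13.77 FPKM, nearly all of it LHCB2.1. Library 2 of MYB2-OE had 109 FPKM of LBD29, the gene overexpressed in the other line, against 1.82 and 1.93 FPKM in libraries 1 and 3. It was the library of its line nearest to Col for 78.9% of 437 higher and 81.9% of 442 lower genes with a mean of at least 1 FPKM. LBD16 also stood at 135 FPKM in library 2, against 5.69 and 5.72 FPKM in libraries 1 and 3. In LBD29-OE the authors' log2 of LBD16 was -0.2 (Q of 0.073). MYB2 was at 375 FPKM in library 2, against 636 and 585 FPKM in libraries 1 and 3. Whether library 2 is mixed or mislabelled was not tested. Each MYB2-OE mean of 3 thus includes a library that stands apart, and the members are given with and without it.

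**Figure D1:**
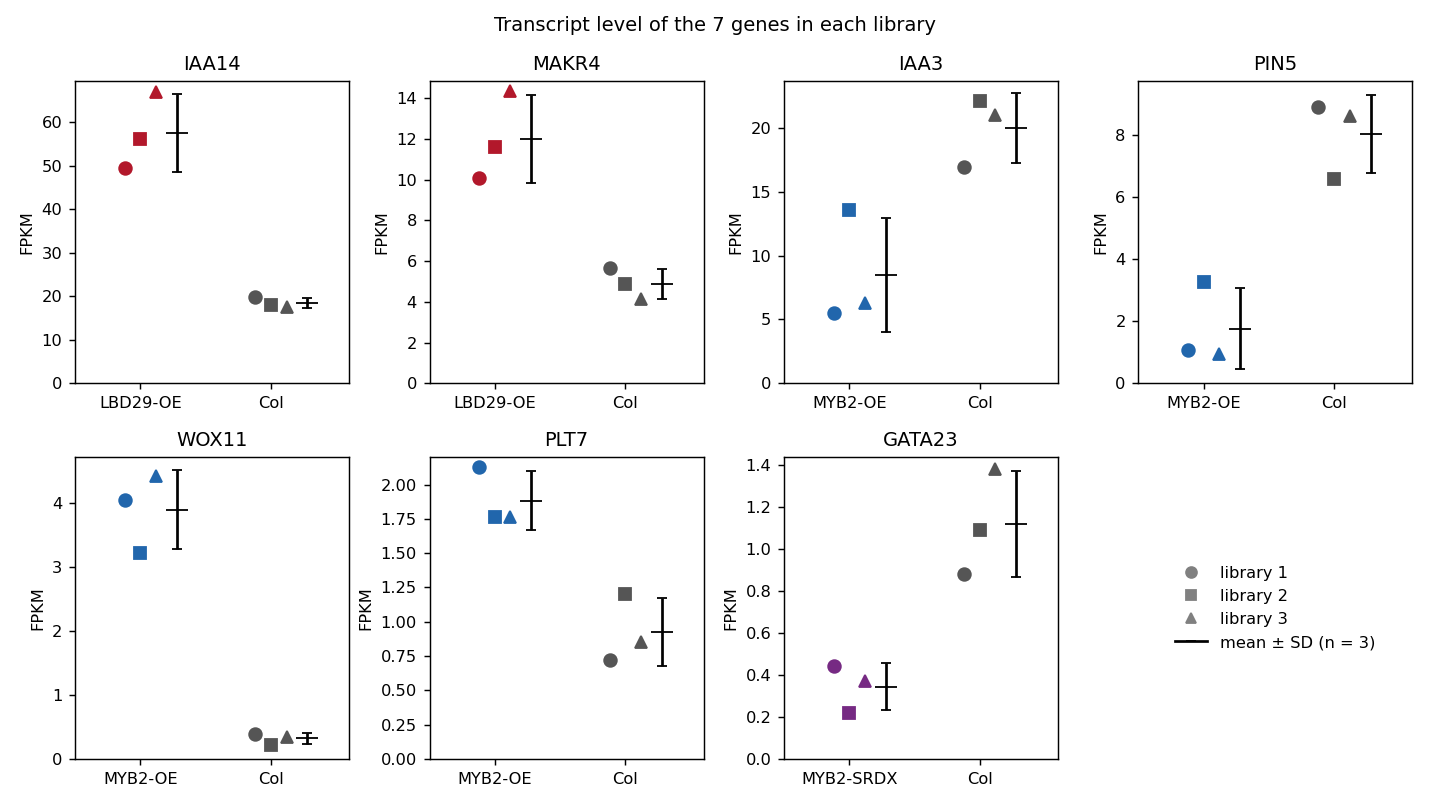
FPKM of the 7 genes in each library of the line that lists them (left) and of Col (right), each panel on a linear axis from 0. Symbols are libraries 1 to 3 and bars the mean ± SD (n = 3), and no line library reaches the range of Col in any panel.

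IAA14 and MAKR4 both rose in LBD29-OE. The repressor gene IAA14 measured 49.46, 56.18 and 67.02 FPKM in LBD29-OE, against 19.8, 17.95 and 17.63 FPKM in Col. Its lowest LBD29-OE library was 2.5 times its highest Col library, and the means differed 3.12-fold (57.6 ± 8.86 and 18.5 ± 1.17 FPKM; SD, n = 3). MAKR4, whose protein sits at the plasma membrane, measured 10.07, 11.61 and 14.34 FPKM in LBD29-OE, against 5.64, 4.88 and 4.14 FPKM in Col. Library 1 was the lowest and library 3 the highest LBD29-OE library for both genes. The means of MAKR4 differed 2.46-fold (12.01 ± 2.16 FPKM in LBD29-OE and 4.89 ± 0.750 FPKM in Col; SD, n = 3).

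On the log2(FPKM + 1) scale limma gave IAA14 a log2 difference of 1.58 (SE 0.143, adjusted p = 0.000446) and MAKR4 one of 1.14 (SE 0.167, adjusted p = 0.00163), adjusted over the 802 genes listed for LBD29-OE. Of those 802 genes 79.9% passed the same test (30.4% higher and 49.5% lower), and all had already been selected by the authors. The exact two-sided permutation test of 3 against 3 libraries gave 0.1 for both genes, the smallest p this design allows, and the same p for the other 5. Without LBD29-OE library 2, where CAB2 and RBCS2B were high, the limma differences were 1.59 and 1.15. By size of the log2 fold change in the authors' deposited table, IAA14 ranked 157 and MAKR4 238 among 335 higher genes. The log2 fold changes behind these ranks were 1.70 for IAA14 (Q of 8.48e-275) and 1.30 for MAKR4 (Q of 2.47e-61) in the authors' deposited table.

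The 5 other genes also have a value for LBD29-OE, because the authors' deposited tables for the MYB2 lines repeat its log2 fold change and Q-value (an adjusted p). PIN5 stood at a log2 of -0.97 with a Q of 2.18e-25, just short of the 2-fold limit that every listed gene passed. IAA3 stood at 0.47 with a Q of 3.31e-21 in the authors' deposited table. WOX11 at 0.13 (Q of 0.377), PLT7 at 0.09 (Q of 0.350) and GATA23 at 0.20 (Q of 0.289) did not pass a Q of 0.05 in the authors' deposited tables. So 4 of the 7 genes had a Q under 0.05 for LBD29-OE, beside 73.9% of the 2335 genes with such a value. For IAA14 and MAKR4 this was fixed by their listing for LBD29-OE, where the largest Q was 0.000976. The 2335 genes likewise include those listed for LBD29-OE. Of the 5 other genes PIN5 and IAA3 passed, and WOX11, PLT7 and GATA23 did not. The share was 71.6% of the genes listed for MYB2-OE and 68% of those listed for MYB2-SRDX. The test behind these Q-values is not given in the sources used here, and neither are library values of the 5 genes in LBD29-OE.

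**Figure D2:**
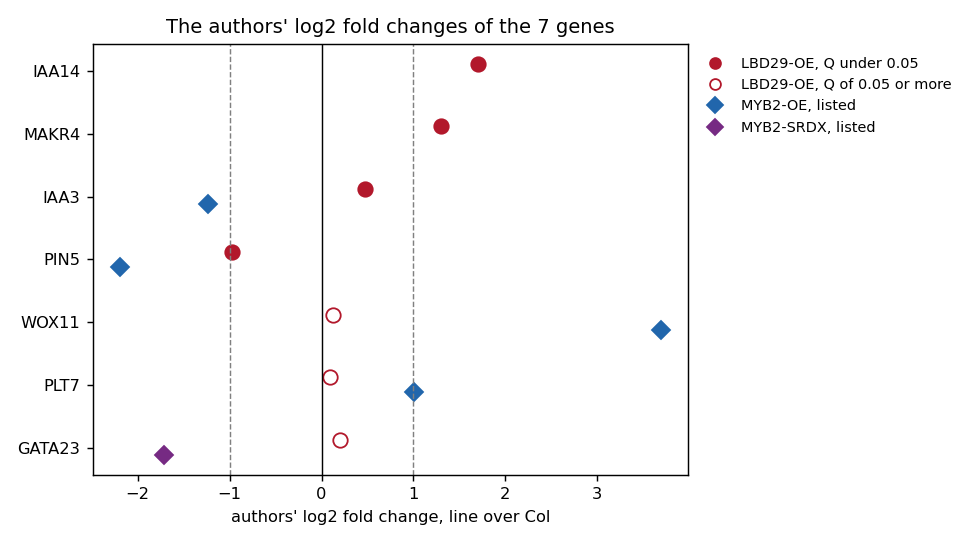
The authors' log2 fold changes over Col of the 7 genes, with circles for LBD29-OE (open where Q is 0.05 or more) and diamonds for the MYB2 line that lists the gene; dashed lines mark 2-fold. WOX11, PLT7 and GATA23 sit between 0.09 and 0.20 in LBD29-OE, and IAA3 lies on opposite sides of 0 in LBD29-OE (0.47) and MYB2-OE (-1.24).

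In MYB2-OE the founder cell gene WOX11 and the primordium gene PLT7 rose, while the transporter gene PIN5 and the repressor gene IAA3 fell. WOX11 measured 4.04, 3.22 and 4.42 FPKM in MYB2-OE, against 0.390, 0.220 and 0.350 FPKM in Col. The groups were far apart, with the lowest MYB2-OE library 8.26 times the highest Col library and the means 12.2-fold apart (3.89 ± 0.613 and 0.320 ± 0.0889 FPKM; SD, n = 3). PLT7 measured 2.13, 1.76 and 1.76 FPKM in MYB2-OE, against 0.72, 1.2 and 0.85 FPKM in Col. Its means differed 2.04-fold (1.88 ± 0.214 and 0.923 ± 0.248 FPKM; SD, n = 3), and by size of log2 it ranked 660 among 666 higher genes of the authors' deposited table. With a pseudocount of 0.1 it lay under 2-fold over all libraries, at a log2 of 0.95.

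PIN5 measured 1.07, 3.26 and 0.940 FPKM in MYB2-OE, against 8.90, 6.59 and 8.60 FPKM in Col. The means were 1.76 ± 1.30 and 8.03 ± 1.26 FPKM (SD, n = 3), a 4.57-fold fall that ranked 98 among 605 lower genes. IAA3, the SHORT HYPOCOTYL 2 repressor known from control of root meristem size, measured 5.52, 13.6 and 6.25 FPKM in MYB2-OE, against 16.9, 22.1 and 21.0 FPKM in Col. The means were 8.46 ± 4.47 and 20.0 ± 2.73 FPKM (SD, n = 3), and the lowest Col library was 1.24 times the highest MYB2-OE library. IAA3 shares 640 bases with AT1G04230 on the opposite strand. The strand setting of the counting is not given in the sources used here, so reads of both loci cannot be told apart, and AT1G04230 itself was not listed in any of the 3 tables.

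Across the 1271 genes listed for MYB2-OE, limma on log2(FPKM + 1) gave WOX11 a log2 difference of 1.88 (SE 0.140, adjusted p = 0.000139) and PLT7 0.59 (SE 0.140, adjusted p = 0.00740). In the same limma fit PIN5 had a log2 difference of -1.80 (SE 0.315, adjusted p = 0.00224) and IAA3 one of -1.24 (SE 0.314, adjusted p = 0.00937). All 4 passed, 2 higher and 2 lower, as did 86.7% of the genes listed for MYB2-OE (45.2% higher and 41.5% lower). The pseudocount of 1 understates the changes of low genes, and with 0.1 the log2 of WOX11 on mean FPKM was 3.25. In the authors' deposited table the log2 fold changes were 3.69 for WOX11, 1.01 for PLT7, -2.19 for PIN5 and -1.24 for IAA3. IAA3 thus had a positive log2 in LBD29-OE and a negative one in MYB2-OE by the authors' deposited tables. Both share the Col libraries, and the difference between the lines was not tested.

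Library 2 of MYB2-OE was the one nearest to Col for WOX11, PIN5 and IAA3, and shared the nearest place with library 3 for PLT7. Measured along the way from the mean of libraries 1 and 3 to the mean of Col, library 2 had gone 54.7% of the distance for IAA3, 32.1% for PIN5, 25.8% for WOX11 and 18.1% for PLT7. Over all listed genes this share had a median of 33.7% over 437 higher genes and 30.2% over 442 lower genes with a mean of at least 1 FPKM, with quartiles of 19.3 and 44.2% (higher) and 15.3 and 40.3% (lower). PIN5 and WOX11 thus lay between the quartiles, IAA3 above the upper and PLT7 below the lower one. MYB2 itself was also lower in library 2, at 375 FPKM against 636 and 585 FPKM in libraries 1 and 3. Without library 2 the limma differences were -1.60 for IAA3, -2.16 for PIN5, 1.99 for WOX11 and 0.62 for PLT7. On mean FPKM with a pseudocount of 0.1, leaving it out changed the log2 of PIN5 to -2.88, against -2.13 with all libraries, and that of IAA3 to -1.75, against -1.23.

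**Figure D3:**
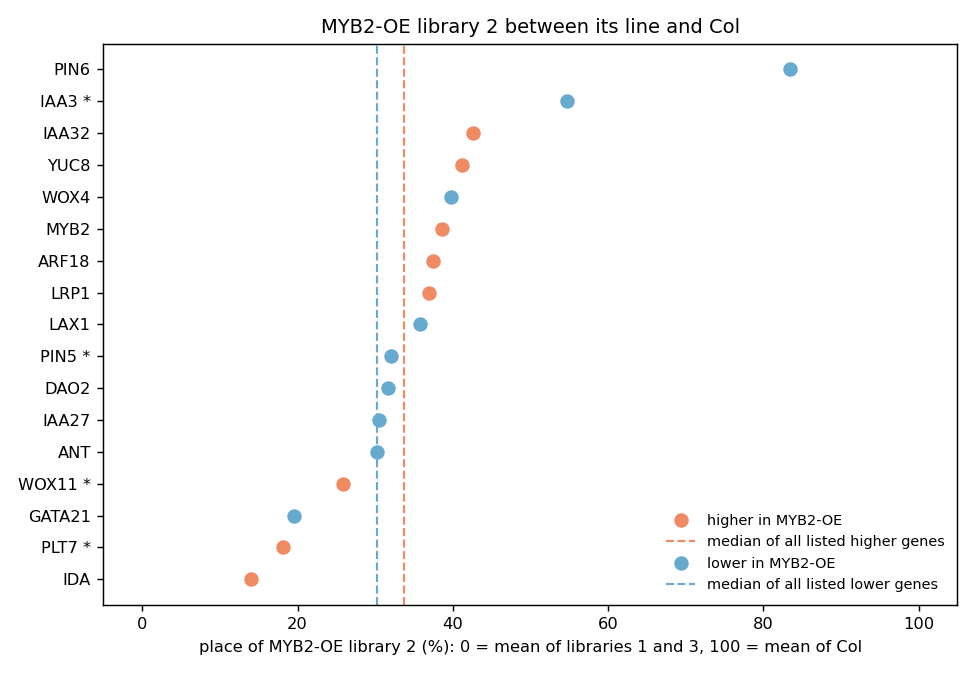
Place of MYB2-OE library 2 for listed genes of the lists and for MYB2, as a percentage of the way from the mean of libraries 1 and 3 to the mean of Col. Stars mark the 4 members, dashed lines the medians of all listed higher and lower genes (33.7 and 30.2%), and LBD16 and LBD29 are left out because library 2 lies far outside the axis.

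GATA23, a zinc finger factor of founder cell identity, fell in MYB2-SRDX and was low in both groups. It measured 0.440, 0.220 and 0.370 FPKM in MYB2-SRDX, against 0.880, 1.09 and 1.38 FPKM in Col. The lowest Col library was 2 times the highest MYB2-SRDX library, and the means were 0.343 ± 0.112 and 1.12 ± 0.251 FPKM (SD, n = 3), a 3.25-fold difference. The log2 fold change in the authors' deposited table was -1.71, with a Q of 3.6e-05. In limma on log2(FPKM + 1) over the 1045 genes listed for MYB2-SRDX the log2 difference was -0.65 (SE 0.139, adjusted p = 0.0109), and 58.7% of the listed genes passed (35.2% as lower). Library 1, the one with seed transcripts, was the highest of the line for GATA23, and the limma difference was -0.70 without it. On mean FPKM its log2 was -0.66, -1.46 and -1.67 with pseudocounts of 1, 0.1 and 0.01.

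The immune regulator gene CBP60G ends 646 bases upstream of GATA23 on the same strand. CBP60G measured 52.8, 0.680 and 0.730 FPKM in MYB2-SRDX, against 0.240, 0.700 and 0.620 FPKM in Col, so its rise was in library 1. GATA23 was low in all 3 libraries of the line, whereas CBP60G beside it was high in 1. In the authors' deposited tables CBP60G was also listed as lower in LBD29-OE (log2 of -2.74, Q of 3.07e-12) and in MYB2-OE (log2 of -1.1, Q of 0.000148). The Aux/IAA members lie in head-to-head pairs, IAA14 with IAA1 at a distance of 10732 bases and IAA3 with IAA17 at 6388 bases. IAA1 and IAA17 were not listed in any of the 3 tables.

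In Col the 7 genes covered a wide range of levels per length. IAA3 (20.0 FPKM) and IAA14 (18.5 FPKM) were the most abundant, and their Col libraries overlapped. PIN5 (8.03 FPKM) and MAKR4 (4.89 FPKM) followed, each apart from its neighbours in this order. GATA23 (1.12 FPKM) and PLT7 (0.923 FPKM) overlapped, and WOX11 was lowest at 0.320 FPKM, below every Col library of PLT7. The spread among Col libraries was widest for the low genes, with a coefficient of variation of 27.8% for WOX11 and 26.9% for PLT7 against 6.35% for IAA14. In MYB2-OE it was 74.2% for PIN5 and 52.9% for IAA3, but 15.8% for WOX11 and 11.3% for PLT7.

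On TAIR10.1, as annotated by RefSeq, IAA14 covers chr4:8347822-8350263 on the minus strand, IAA3 chr1:1128149-1129689 (minus), MAKR4 chr2:16443996-16445408 (minus) and WOX11 chr3:889166-892229 (minus). PLT7 covers chr5:26185593-26189571, GATA23 chr5:9479424-9480200 and PIN5 chr5:5400600-5402845, all on the plus strand. MAKR4 has 1 exon and 1 annotated mRNA, GATA23 2 exons and 1 mRNA, while IAA14, WOX11 and PLT7 have 4 mRNAs each. FPKM per gene does not show which mRNA was present.

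The genes whose library pattern was most like a member were found by Pearson's r of log2(FPKM + 1) over the 6 libraries of the table, among named genes of the same direction with a group mean of at least 1 FPKM. Such an r mainly carries the step between the groups, since all candidates were selected for it, and the genes share the libraries. For IAA14 the nearest of 114 candidates were the transcription factor gene bHLH093 (r = 0.9985), the receptor-like protein gene RLP44 (0.9981) and the cytochrome P450 gene CYP705A12 (0.9975). CYP705A12 and RLP44 were also among the 3 nearest to MAKR4, at 0.9946 and 0.9907, with PR-1-LIKE at 0.9937. In all, 69 and 70 of the 114 candidates exceeded 0.9 for IAA14 and MAKR4.

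In MYB2-OE the nearest of 216 candidates to WOX11 were the acid phosphatase gene PAP17 (r = 0.9983), the amino acid exporter family gene UMAMIT17 (0.9982) and CXE17 (0.9979). PLT7 was nearest to the xylem vessel regulator gene VND1 (0.9934), the gibberellin oxidase gene GA2OX4 (0.9904) and the plastid gene RPOA (0.9759). Among 224 lower candidates PIN5 was nearest to JAL31 (0.9962), ATMPK13 (0.9959) and MLP34 (0.9952), and IAA3 to the MADS-box gene AGL15 (0.9942), GSTT3 (0.9940) and UMAMIT26 (0.9939). In MYB2-SRDX, GATA23 was nearest to NAC6 (0.9930), TKPR2 (0.9811) and the cytokinin activation gene LOG5 (0.9765) of 179 candidates. Many candidates were alike: 176 of 216 exceeded an r of 0.9 for WOX11, 126 of 216 for PLT7, 179 of 224 for PIN5, 157 of 224 for IAA3 and 77 of 179 for GATA23.

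The wider pathway was read from 10 lists with 146 genes, all 146 found in RefSeq by locus and the 7 members included, of which 7 were listed for LBD29-OE (4.79%), 18 for MYB2-OE (12.3%) and 6 for MYB2-SRDX (4.11%). Leaving out the members and, in its own line, the LBD29 transgene, 4 of 138 other genes (2.90%) were listed for LBD29-OE, 14 of 139 (10.07%) for MYB2-OE and 5 of 139 (3.6%) for MYB2-SRDX. The shares of protein-coding loci given above were 2.89, 4.56 and 3.78% in the same order. The lists were chosen with earlier results of these data known. These shares, and the counts per list given below, are therefore a description and no test of an excess. The 14 genes include LBD16, LBD29 and IAA32, which did not pass limma (adjusted p = 0.154, 0.369 and 0.0694). Without the members and, in its own line, the transgene, the listed genes were 3 higher and 1 lower in LBD29-OE, 7 and 7 in MYB2-OE and 0 and 5 in MYB2-SRDX. Their median log2 fold changes in the authors' deposited tables were 1.06, -0.13 and -1.36, beside -1.09, 1.03 and 1.04 over all listed genes, of which 41.8, 52.4 and 52.9% were higher. The 6 auxin receptor genes (TIR1 and AFB1 to AFB5) were listed in 0 of the 3 tables.

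**Figure D4:**
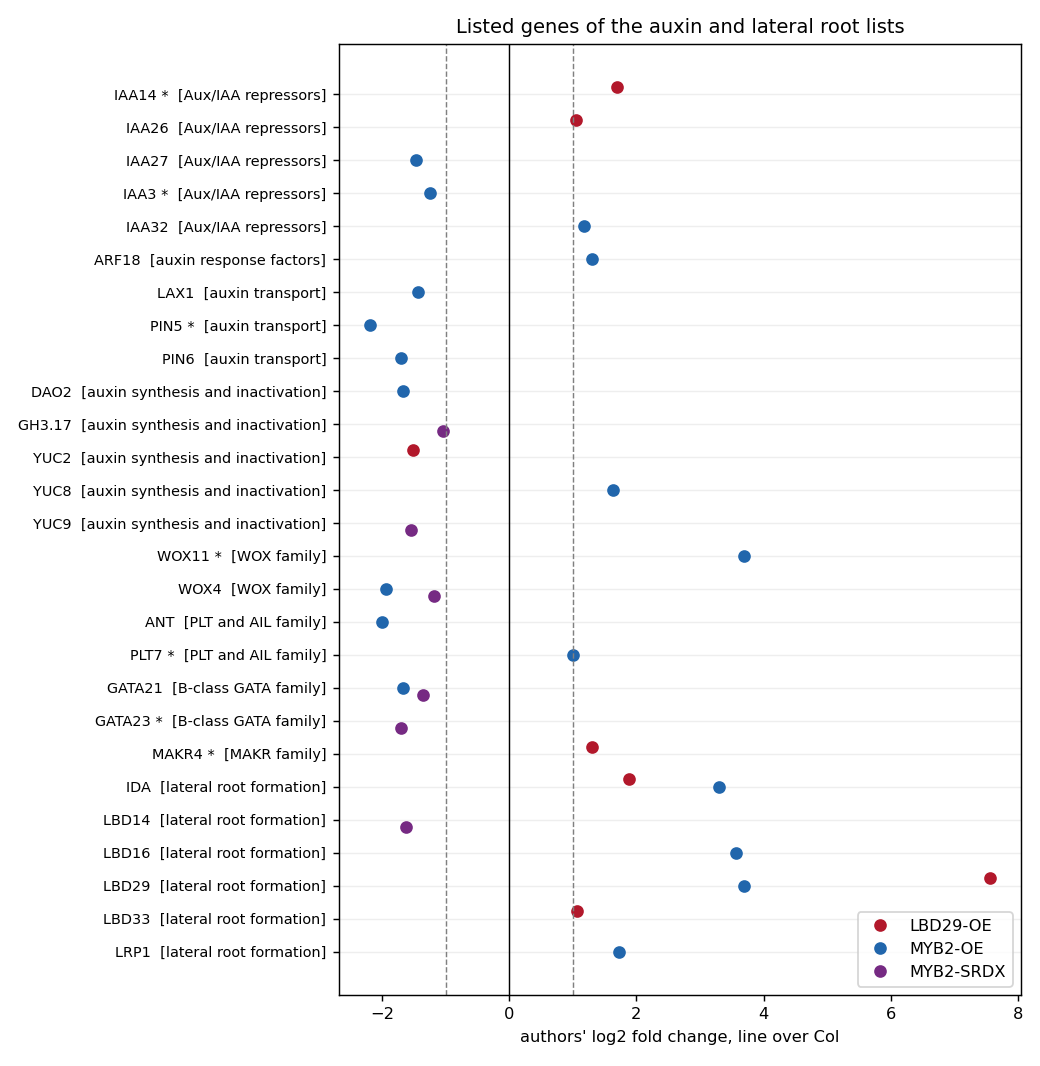
The authors' log2 fold changes over Col of every listed gene of the 10 lists, with the list in brackets, members starred and dashed lines at 2-fold. Points of MYB2-SRDX (6 genes) all lie below 0, those of MYB2-OE on both sides (9 higher and 9 lower).

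Among the 29 Aux/IAA genes 2 were higher in LBD29-OE, 1 higher and 2 lower in MYB2-OE and 0 listed in MYB2-SRDX. Beside IAA14, IAA26 (PAP1 in the tables) was higher in LBD29-OE, at 46.5 ± 3.89 FPKM against 23.0 ± 1.52 FPKM in Col (SD, n = 3). Beside IAA3, IAA27 (PAP2 in the tables) fell in MYB2-OE, to 14.7 ± 5.18 FPKM against 40.9 ± 4.02 FPKM in Col (SD, n = 3). IAA32 was listed as higher at 1.12, 0.630 and 0.540 FPKM in MYB2-OE, against 0.430, 0.430 and 0.220 FPKM in Col, and did not pass limma (adjusted p = 0.0694). IAA26 was under 2-fold without LBD29-OE library 3 or Col library 1, at log2 values of 0.95 and 0.96 with a pseudocount of 0.1. Of 15 auxin response factor genes, 1 was listed, ARF18, which rose in MYB2-OE to 11.7 ± 1.72 FPKM, against 4.78 ± 0.604 FPKM in Col (SD, n = 3).

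Of 15 auxin transport genes 3, the member PIN5 included, were lower and 0 higher in MYB2-OE, and 0 were listed for the other lines. Of all protein-coding loci 2.19% were listed as lower in MYB2-OE. Beside PIN5, the influx carrier gene LAX1 fell to 8.96 ± 3.43 FPKM in MYB2-OE, against 23.4 ± 4.42 FPKM in Col (SD, n = 3). PIN6 measured 0.0400, 0.650 and 0.0200 FPKM in MYB2-OE, against 0.800, 0.730 and 0.790 FPKM in Col, so library 2 nearly reached Col. With a pseudocount of 0.1 its log2 was -1.38 over all libraries, -2.75 without library 2 and -0.97 without library 3. Auxin synthesis and inactivation genes (20 genes) gave 1 lower gene in LBD29-OE, 1 higher and 1 lower in MYB2-OE and 2 lower in MYB2-SRDX. YUC8, a flavin monooxygenase gene of auxin synthesis, rose in MYB2-OE to 8.23 ± 1.63 FPKM, against 2.67 ± 0.127 FPKM in Col, and its relative YUC9 fell in MYB2-SRDX to 3.03 ± 0.302 FPKM, against 8.81 ± 1.53 FPKM in Col (SD, n = 3). DAO2, of the family that oxidises auxin, fell in MYB2-OE to 15.1 ± 7.38 FPKM, against 48.1 ± 2.55 FPKM in Col (SD, n = 3). GH3.17, which joins auxin to an amino acid, fell in MYB2-SRDX to 26.7 ± 3.15 FPKM, against 54.9 ± 2.39 FPKM in Col (SD, n = 3), and was under 2-fold without library 3 of the line (log2 of -0.95). YUC2 was below 1 FPKM, at 0.167 ± 0.0115 FPKM in LBD29-OE and 0.467 ± 0.111 FPKM in Col (SD, n = 3), and under 2-fold without Col library 2 (log2 of -0.95).

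Several relatives of the members were listed too. WOX11 rose in MYB2-OE while WOX4, a cambium regulator gene, fell there, to 1.14 ± 0.852 FPKM against 4.35 ± 1.21 FPKM in Col (SD, n = 3), and 13 of 15 WOX genes were not listed. With a pseudocount of 0.1 the log2 of WOX4 in MYB2-OE was -2.58 without library 2 and -1.85 with all libraries. WOX4 was lower in MYB2-SRDX too, with 1.34, 1.93 and 2.44 FPKM in its libraries and 4.88, 5.2 and 2.97 FPKM in those of Col, and was under 2-fold without library 1 of the line (log2 of -0.96). PLT7 rose in MYB2-OE while ANT, an organ growth regulator of the same family of 8 genes, fell to 2.11 ± 1.22 FPKM, against 8.43 ± 0.448 FPKM in Col (SD, n = 3). GATA21, a relative of GATA23 known for greening, fell in MYB2-OE (0.420 ± 0.147 FPKM) and in MYB2-SRDX (0.527 ± 0.122 FPKM), against 1.35 ± 0.309 FPKM in Col (SD, n = 3). MYB2-OE and MYB2-SRDX are set against the same Col libraries. MAKR4 was the 1 listed gene of the 7 in its family.

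Among 22 further lateral root genes, 3 were higher in LBD29-OE, 4 higher in MYB2-OE and 1 lower in MYB2-SRDX. The 3 in LBD29-OE were IDA, LBD33 and LBD29, which is the transgene itself. LRP1, a gene marking lateral root primordia, rose in MYB2-OE to 21.4 ± 3.70 FPKM, against 6.40 ± 1.00 FPKM in Col, and LBD14 fell in MYB2-SRDX to 1.6 ± 0.297 FPKM, against 4.93 ± 0.911 FPKM in Col (SD, n = 3). IDA, a peptide gene of cell separation over emerging roots, measured 1.5, 1.17 and 1.18 FPKM in MYB2-OE, against 0.110, 0.0600 and 0.220 FPKM in Col. In LBD29-OE, IDA overlapped Col and did not pass limma (adjusted p = 0.0741). LBD33 measured 2.24 ± 0.146 FPKM in LBD29-OE and 1.07 ± 0.241 FPKM in Col (SD, n = 3), and was under 2-fold without any 1 of 4 libraries, at log2 values down to 0.87. LBD16 and LBD29 were listed for MYB2-OE with high values in library 2, at 135 and 109 FPKM there, against 5.69 and 5.72 FPKM (LBD16) and 1.82 and 1.93 FPKM (LBD29) in libraries 1 and 3, and Col averaged 4.1 and 2.89 FPKM. They did not pass limma (adjusted p = 0.154 and 0.369), and without that library their log2 values were 0.47 and -0.60.

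Annotation terms in the tables set the members in the same frame. The term for response to auxin was attached to IAA3, WOX11, PLT7 and PIN5, 4 of the 29 genes that carry it among those listed for MYB2-OE, of which 17 were higher and 12 lower, and to IAA14, 1 of 18 in LBD29-OE (12 higher and 6 lower). The term for lateral root development was attached to IAA14, 1 of 9 such genes in LBD29-OE (7 higher and 2 lower), and to GATA23, 1 of 4 in MYB2-SRDX (1 higher and 3 lower). For MYB2-OE 9 listed genes carried it (8 higher and 1 lower), 0 of them members. Of all listed genes 41.8% (LBD29-OE), 52.4% (MYB2-OE) and 52.9% (MYB2-SRDX) were higher. MAKR4 carried neither term.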

How the data were processed

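Root RNA of 4 genotypes, with 3 libraries each, was measured by sequencing. The authors deposited 3 tables of called genes, each 1 line against Col, with FPKM per library and mean FPKM, per the file headers. Per the same file headers the tables give the authors' log2 fold change, p-value and Q-value, and those for the MYB2 lines repeat these for LBD29-OE. The build was TAIR10, per the submitters' processing notes. The aligner, counting tool and test were not given in the sources used here. Groups came from titles and genotype labels. Columns of MYB2-SRDX do not match single titles, so its libraries carry no replicate number of their own and are called 1, 2 and 3 by the last digit of the column. The smallest absolute log2 was above 1 in each table and the largest Q over the 3 tables was 0.000999. Low FPKM values gave no depth: at the best depth 42.1 to 82.4% of 16 to 48 low values per library fell within 0.1 of whole reads.

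The authors' calls were taken as the result. Limma (3.58.1, R 4.3.3) was run on log2(FPKM + 1) of all genes of a table with Benjamini-Hochberg adjustment at 0.05, and single genes were also compared by a two-sided exact permutation test (scipy 1.17.1). In simulated data limma recovered 97, 88 and 87% of changes of log2 1.5 in the tables of LBD29-OE (802 genes), MYB2-OE (1271) and MYB2-SRDX (1045). There only some genes were changed, all upward, whereas every gene of the real tables was selected as changed. The limma differences of MAKR4, IAA3, PLT7 and GATA23 were smaller in size than 1.5, so these rates do not cover them. The members and lists were chosen with earlier results of these data known. Named genes were the members, the transgenes, every listed gene of the lists, the 3 genes most like each member, and library markers. CBP60G and the other neighbours were looked up by position. No member stood in 2 tables, so none was tested between lines. The authors' values of 5 members for LBD29-OE and a MYB2 line are set side by side only. Promoters came from the RefSeq TAIR10.1 genome with its own annotation, matched by locus.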

Additional observations from a re-analysis of the deposited data

How the results depend on the processing

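All 7 members kept their direction and passed limma's adjusted threshold of 0.05 with pseudocounts of 1 and 0.1 and with each of 6 libraries left out. With a pseudocount of 0.1, 690 of 802 (LBD29-OE), 1220 of 1271 (MYB2-OE) and 698 of 1045 (MYB2-SRDX) listed genes passed too. With 1 library left out, 523 to 595, 966 to 1139 and 416 to 745 listed genes passed in the same order. All listed genes had already been selected by the authors, so passing does not set the members apart. A filter on a mean of 1 FPKM left GATA23 without a value, and since low genes such as WOX11 and PLT7 pass it through MYB2-OE alone, nothing is drawn from it. With 1 library left out the largest adjusted p was 0.0428 for GATA23, 0.0422 for IAA3, 0.0293 for PLT7, 0.0135 for PIN5, 0.00967 for MAKR4, 0.00459 for IAA14 and 0.00182 for WOX11. On the log2 scale of mean FPKM + 1 the value was 1.89 for WOX11, 0.58 for PLT7, -1.71 for PIN5 and -0.66 for GATA23. With pseudocounts of 0.1 and 0.01 it was 3.25 and 3.56 for WOX11, 0.95 and 1.02 for PLT7, and -1.46 and -1.67 for GATA23, since a smaller pseudocount shrinks low values less, and PIN5 stood at -2.19 with 0.01. Centring on the median of the listed genes subtracts an offset, relative to Col, of -0.13 from LBD29-OE and of 0.16 from MYB2-OE. Only called genes are listed, so this offset can follow the balance of higher and lower genes and is not read as a library scale. Centring gave 1.73 for WOX11 and 0.43 for PLT7. Leaving out 1 library gave log2 values from 1.47 to 1.69 for IAA14, 1.01 to 1.25 for MAKR4, -1.61 to -0.94 for IAA3, -2.17 to -1.51 for PIN5, 1.81 to 1.99 for WOX11, 0.51 to 0.69 for PLT7 and -0.73 to -0.56 for GATA23. A limma fit with a replicate block was run for LBD29-OE and MYB2-OE only, so GATA23 has no value from it. It changed the call of none of the members listed for these lines, with adjusted p from 0.000927 (WOX11) to 0.0237 (PLT7) and IAA14 at a log2 of 1.58. With the block 544 genes passed for LBD29-OE and 1021 for MYB2-OE, against 641 and 1102 without it. Same-numbered libraries correlated in their deviations from the group means at -0.06, 0.02 and -0.09 (LBD29-OE and Col) and at 0.02, 0.01 and 0.01 (MYB2-OE and Col). Each MYB2-OE library correlated best with its own number, but these values are too small to show pairs. The numbers are therefore not taken as pairs, and MYB2-SRDX columns carry none. Counts of listed members at 2-fold with a pseudocount of 0.1 were 2 for LBD29-OE, 3 for MYB2-OE and 1 for MYB2-SRDX. Of all listed genes 90.9, 90.2 and 91.2% passed this cut in the same order. The member counts were the same in alternatives chosen after seeing the data: without library 2 of LBD29-OE, library 2 of MYB2-OE or library 1 of MYB2-SRDX. There the list counts were 6, 15 and 5, against 7, 16 and 6 with all libraries at this cut. For these alternatives the share of all listed genes was not computed. Genes under 1 FPKM have the least certain folds, and depth is unknown.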
